A study of Mus musculus with 6 samples.

Results

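The regions described here carried trimethylation of lysine 4 on histone H3 (H3K4me3) in both libraries of the study and lay at least 10 kb from every gene. To find them, the regions of both deposited H3K4me3 lists were merged wherever they touched or overlapped, on chromosomes 1 to 19 and X. A merged region was kept if it held bp from both lists and if the nearest gene of any kind, whether protein-coding, lncRNA, pseudogene or small RNA, was 10 kb or more away. Of 58390 merged regions, 34228 were shared by both lists, and 4108 of these (12.0%) met the distance rule. The regions were chosen by the called positions in both lists and by the gene table, so the presence of the mark and the distance are not findings.

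The lists came from CD8+ lymphocytes that had infiltrated e0771 tumours, a mammary tumour line of C57BL/6 origin, in C57BL/6 mice. One library came from wild-type mice and the other from mice with a Cre-mediated deletion of Atg5, which encodes a protein needed to extend the autophagosome membrane. Each genotype had 1 H3K4me3 library, so no difference below has a replicate check and no test between genotypes was possible. The labels name neither the Cre driver nor the age or number of animals, and whether cells were pooled is not given in the sources used here. Both libraries were made by digesting native chromatin with micrococcal nuclease before the immunoprecipitation.

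H3K4me3 is deposited by SET1 and MLL complexes and is best known from nucleosomes around the starts of active genes. Weaker and narrower H3K4me3 is also known at strongly active enhancers and at starts of transcripts that gene tables do not hold. In T cells, long stretches of the mark are known at genes that define the lineage.

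The label of the wild-type library was checked at gene starts before its distal regions were read. Of 18 T cell identity genes with a start in the gene table, 18 had a region within 1 kb of the start in the knockout list and 6 in the wild-type list. Within 2.5 kb of these starts the covered length summed to 75785 bp in the knockout list and 16500 bp in the wild-type list, where 10 of the 18 were at 0 bp, among them Cd8a, Cd3e, Zap70, Lat and Bcl11b. Other T cell lists differed less. Starts of T cell transcription factors were marked in 27 of 30 cases in wild type and 28 in knockout. Inhibitory receptor starts were marked in 8 and 10 of 10, naive, memory and homing starts in 8 and 12 of 12, and CD8 effector starts in 7 and 16 of 18. Starts of leukocyte-wide genes were marked in 17 of 17 cases in both lists. Myeloid starts were marked in 20 of 24 cases in wild type and 17 in knockout. Epithelial and mammary tumour starts were marked in 11 and 12 of 16, and fibroblast and endothelial starts in 8 and 9 of 11. The wild-type list therefore lacked the mark at most starts of identity genes of the labelled cell type, and the part of this in the results below was not tested. The lists offer no check for exchanged labels, which would reverse each direction given below, so wild type and knockout stand for the libraries as labelled. In bulk libraries, fewer cells of a type and less mark per cell cannot be told apart.

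Wild-type regions far from genes were shared less fully than other wild-type regions, which did not hold for knockout regions. Of the 8119 merged regions at least 10 kb from every gene, 50.6% (exact 95% interval, 49.5 to 51.7%) were shared, 33.7% were found in wild type only and 15.7% in knockout only. Counted as merged regions, the shared ones were 60.0% of those in the wild-type list this far out, against 74.6% elsewhere, and 76.4% of those in the knockout list, against 75.2% elsewhere. Among the other 50271 merged regions, 59.9% were shared, and the remainder divided into 20.4% in wild type only and 19.7% in knockout only. Intervals here cover counting error only.

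The 4108 shared distal regions were short and weak within each list. Their median covered length, which is the number of bp under called regions, was 1126 bp in the wild-type list (quartiles 794 and 1562.5 bp) and 847 bp in the knockout list (547.75 and 1292.5 bp). Shared regions within 1 kb of a protein-coding start had medians of 2456 and 2475 bp. The authors' fold divides the reads at the highest point of a region, its summit, by the background reads around it in that library. It was 9.36 at the median distal region in the wild-type list against 13.3 at other shared regions and 27.6 at protein-coding starts. In the knockout list the corresponding medians were 6.91, 12.2 and 31.5. Folds were not scaled between libraries and are read only within each list. Of the distal regions, 62 (1.51%) reached the top 10% of folds among shared regions in wild type and 14 (0.341%) did so in knockout.

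**Figure D1:**
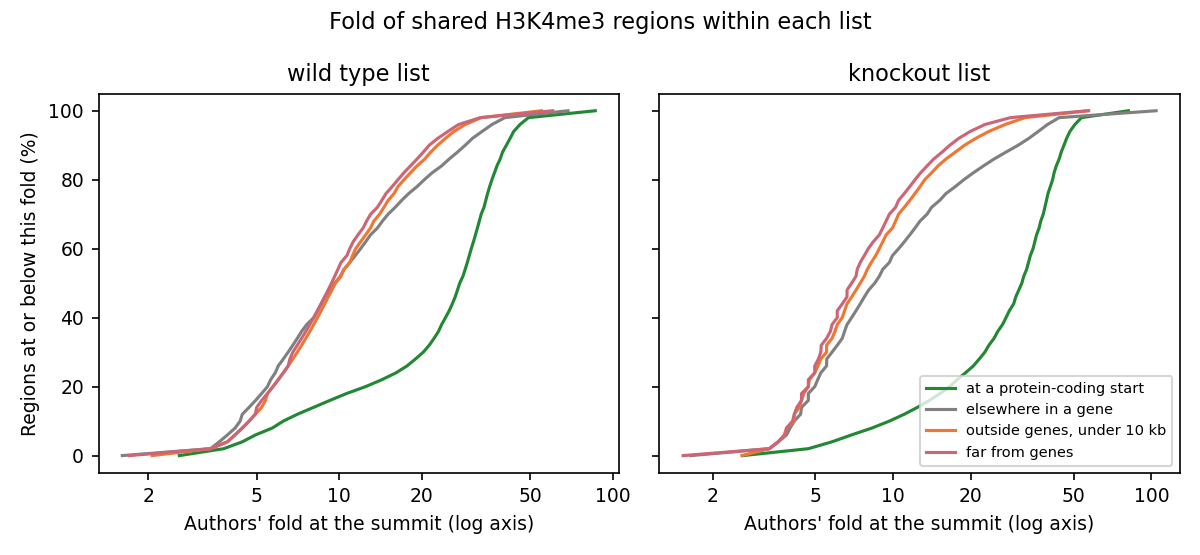
Cumulative share (%) of shared H3K4me3 regions at or below each authors' fold (log axis) in the wild-type list (left) and the knockout list (right). Lines are the classes of position; in the upper part of both plots the line for regions far from genes lies farthest left, close to regions outside genes but nearer than 10 kb, while the line for protein-coding starts lies far to the right (medians 27.6 and 31.5).

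The same place was marked in both libraries in most cases. In 97.1% of the distal regions, 1 wild-type region met 1 knockout region. The summits of the lists lay a median of 69 bp apart, and in 76.4% of regions within 200 bp. Of the bp covered in the knockout list, 89.7% were also covered in the wild-type list, whereas 72.6% of the wild-type bp were covered in the knockout list. The knockout stretch was thus mostly nested in the wild-type stretch. At protein-coding starts the shares were 86.8% and 92.4%. Across the distal regions, Spearman's correlation between the lists was 0.70 for fold and 0.67 for covered length, a description over regions that share library, depth and calling threshold.

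Most distal regions were shorter in the knockout library. In total they covered 5227836 bp in the wild-type list and 4230794 bp in the knockout list. Of the 4108 regions, 3272 were shorter in the knockout list, 828 were longer and 8 were equal. The median log2 ratio of covered length, knockout over wild type, was -0.35 (order-statistic 95% interval, -0.38 to -0.33), beside -0.13 over all shared regions. It was -0.01 at protein-coding starts, -0.18 elsewhere in genes and -0.33 outside genes at under 10 kb. The distal regions thus lay at the low end of a gradient, and their value was close to that of regions nearer to genes.

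A region was called longer in a list if it covered at least 1.5 times the bp. By this rule 271 distal regions (6.60%, interval 5.86 to 7.40%) were longer in the knockout list, where 10.4% of all shared regions were. In the other direction 1348 (32.8%, interval 31.4 to 34.3%) were longer in the wild-type list, where 20.2% of all shared regions were. Outside genes but nearer than 10 kb the shares were 7.14% and 32.0%, so regions at 10 kb or more did not stand apart from closer intergenic ones on this measure. The 271 regions longer in the knockout list had median lengths of 554 bp in wild type and 1381 bp in knockout, and 97 of them differed by 1 kb or more. The 1348 longer in wild type had medians of 1149 and 549 bp, and 183 differed by 1 kb or more. With a 2-fold rule 3.48% of the distal regions were longer in knockout and 14.2% in wild type, where 5.87% and 9.19% of all shared regions were.

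**Figure D2:**
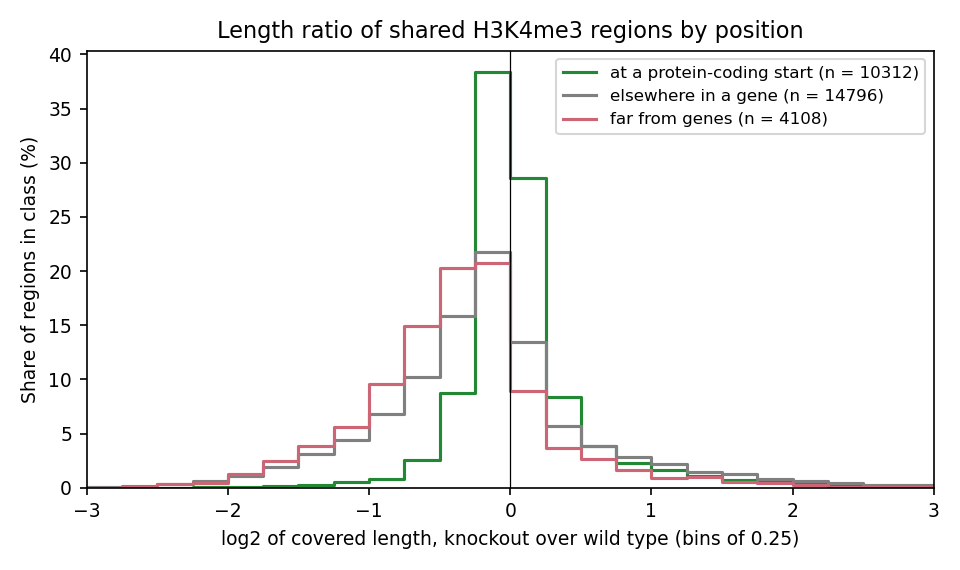
Share (%) of shared regions in bins of the log2 ratio of covered length, knockout over wild type, for regions far from genes, elsewhere in genes and at protein-coding starts. The distal distribution is shifted to the left (median -0.35) while that of starts is centred near 0 (median -0.01).

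Weak regions differed more in length than strong ones, and the distal set held many weak regions. When all shared regions were ranked by the mean of their fold ranks in both lists and divided into 5 bins, 990 distal regions fell in the weakest bin and 85 in the strongest. The median log2 length ratio of distal regions went from -0.50 in the weakest bin through -0.46, -0.32 and -0.22 to -0.09 in the strongest. For the other shared regions of the same bins it was -0.40, -0.26, -0.19, -0.07 and -0.02. Within each bin the distal value was lower, although the others include gene starts and are not matched in width.

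Distance beyond 10 kb changed these values little. There were 2033 regions at 10 to 20 kb from the nearest gene, 1481 at 20 to 50 kb, 401 at 50 to 100 kb and 193 farther out. Their median log2 length ratios were -0.33, -0.37, -0.38 and -0.41, with overlapping intervals between neighbouring bins. The median distance was 20211 bp to any gene and 35722.5 bp to a protein-coding gene. The nearest gene was protein-coding for 42.4% of regions, a lncRNA for 35.9% and a pseudogene for 17.0%.

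The 10 kb limit had regions close on either side. Just inside it was chr6:124374487-124376563, exactly 10000 bp from the lncRNA 1700027F06Rik, with 1004 bp in wild type and 2077 bp in knockout. Next came chr12:79017561-79018820, 10001 bp from Tmem229b, with 1260 and 999 bp. Just outside was chr4:125999831-126001051, 9998 bp from Gm32908, with 1221 and 647 bp. The farthest of all was chr15:15089653-15091029, 622983 bp from the pseudogene Gm9630, and it covered 1377 bp in wild type and 777 bp in knockout.

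A small number of distal regions were as strong as gene starts. In 47 (1.14%) the fold reached the median of protein-coding starts in both lists. These covered a median of 2204 bp in wild type and 2256 bp in knockout, and their summits lay a median of 29 bp apart. Their median log2 length ratio was -0.07, with 4 of 47 at least 1.5 times longer in knockout and 0 longer in wild type. Over all distal regions these shares were 6.60% and 32.8%, and over all shared regions 10.4% and 20.2%. In the strongest of the 5 bins above they were 4.71% and 0% for distal regions and 2.28% and 0.681% for other shared regions. The region chr12:8639947-8642245, 31846 bp upstream of Pum2, an RNA-binding repressor of translation, had a wild-type fold of 48.8 and a knockout fold of 48.1 and covered 2282 and 2206 bp. The region chr2:32136968-32139052, 11978 bp upstream of Prrc2b, had folds of 37.2 and 47.3 and covered 2085 and 1632 bp. A region 20292 bp from Actb, the gene of cytoplasmic beta-actin, at chr5:142928269-142933144, covered 3735 bp in wild type and 4749 bp in knockout. Near Klrb1c, which encodes the natural killer receptor NK1.1, 2 of the 47 lay 13060 and 16167 bp downstream, with lengths of 2360 and 2763 bp and of 2553 and 2592 bp in wild type and knockout. The third region near Klrb1c, 22840 bp downstream, had a knockout fold of 27.2 and was not among the 47.

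The longest distal region had nearly the same length in both libraries. It lay at chr15:85664123-85677101, 57808 bp upstream of Ppara, a nuclear receptor that controls fatty acid oxidation, and covered 12979 bp in wild type and 12778 bp in knockout, with summits 5264 bp apart. The region chr12:55461403-55468622 was 20786 bp downstream of Nfkbia, which encodes the NF-kappaB inhibitor IkappaB-alpha, and covered 7220 and 6890 bp. The region chr17:29392323-29398861, 12787 bp downstream of Fgd2, covered 6226 and 6539 bp. Other long regions differed. The region chr17:84113881-84122092, 61831 bp from Zfp36l2, an mRNA decay factor, covered 5324 bp in wild type and 7893 bp in knockout.

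The largest difference in bp of any distal region was at the Cd8a locus. The region chr6:71351183-71362087 lies between Cd8b1 and Cd8a, 11339 bp upstream of Cd8a, which encodes a chain of the CD8 co-receptor, and this interval is known to hold several CD8 enhancers. It was a single stretch of 10905 bp in the knockout list with a fold of 23.2. The wild-type list held 2 separate regions there, 911 bp in all, with a highest fold of 4.16. The highest points of the lists lay 4418 bp apart in it, so these folds belong to different places. At the start of Cd8a itself the covered length was 4386 bp in knockout and 0 bp in wild type. This locus is also a marker of the labelled cell type, and the shortfall of such markers in the wild-type list was described above.

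**Figure D3:**
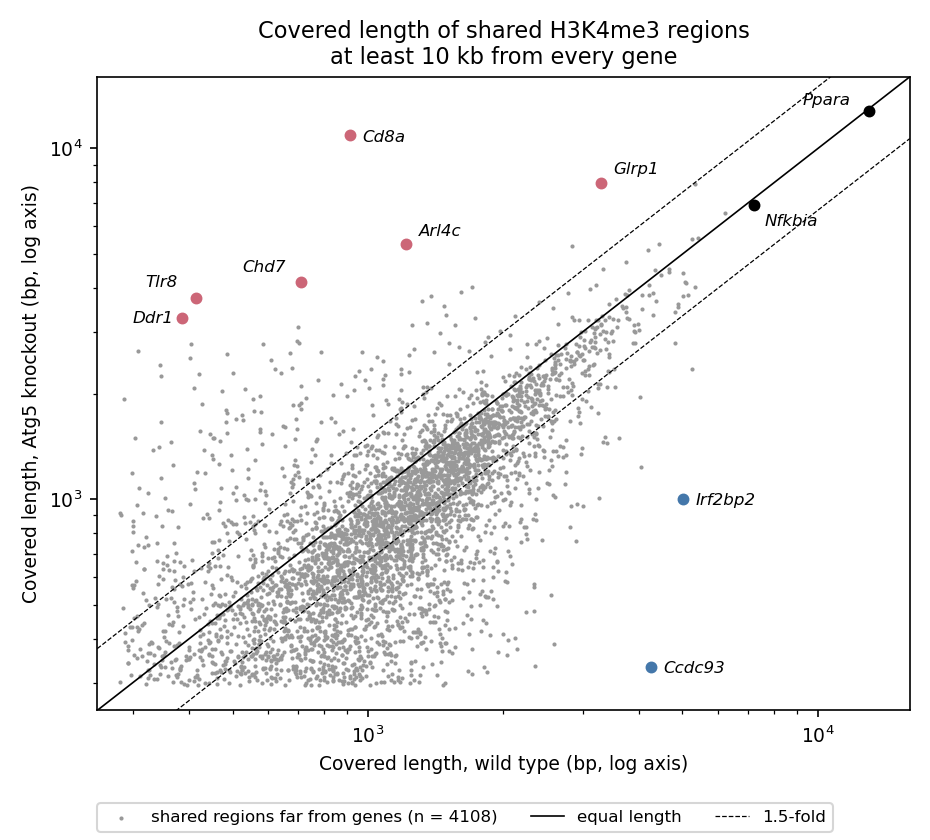
Covered length (bp, log axes) of each of the 4108 shared regions far from genes in the wild-type list (horizontal) and the knockout list (vertical), with lines of equal and 1.5-fold different length. Large points are named by the nearest protein-coding gene and mark large gains in knockout (red), large losses (blue) and long regions of similar length in both (black); the cloud lies mostly below the line of equal length, and the Cd8a region (911 and 10905 bp) is farthest above it.

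Other distal regions with large gains in the knockout list lay near genes of varied roles. Near Arl4c, a small GTPase, chr1:88652329-88657672 covered 1215 bp in wild type and 5344 bp in knockout, 40552 bp downstream of the gene. In the same interval chr1:88581195-88589296, whose nearest protein-coding gene was Glrp1 at 55285 bp, covered 3293 and 7997 bp. The region chr4:8925424-8929575, 56974 bp from Chd7, a chromatin remodeller, covered 708 and 4152 bp. These gains were not joined to a gain of the nearest start in all cases, since Arl4c had 3606 bp at its start in wild type and 4301 bp in knockout, and Glrp1 3381 and 2478 bp. On the X chromosome chrX:167226352-167230109, 11013 bp downstream of Tlr8, an endosomal RNA sensor, covered 414 and 3758 bp. The region chr17:35739275-35742550, 34533 bp upstream of Ddr1, a collagen receptor kinase, covered 386 and 3276 bp. Upstream of Cbx8, a Polycomb protein, chr11:119053930-119059189 covered 2846 and 5260 bp.

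The largest losses in bp were smaller than the Cd8a gain, although the log2 ratio near Ccdc93, -3.68, was larger in size than the 3.58 at Cd8a. The region chr8:126683372-126688390, 89385 bp upstream of Irf2bp2, a transcriptional corepressor, covered 5019 bp in wild type and 1003 bp in knockout, while the start of Irf2bp2 was covered over all 5001 bp of its window in both lists. The region chr1:121396116-121400368, 30698 bp from Ccdc93, covered 4253 and 332 bp. The region chr6:84389392-84394634, 176779 bp downstream of Cyp26b1, which encodes a retinoic acid hydroxylase, covered 5243 and 2346 bp, and the start of that gene was at 0 bp in both. Near Dusp5, an ERK phosphatase, chr19:53552135-53555137 covered 3003 bp in wild type and 957 bp in knockout, with the start at 3556 and 3507 bp. Distal length and start length thus differed from each other at these genes too.

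The state of the nearest protein-coding start was compared with the distal regions over the whole set. It was marked in both lists for 2505 regions, in neither for 611, in knockout only for 104 and in wild type only for 27, while 861 regions had a nearest gene with no start in the table. Where the start was marked in knockout only, 16 of 104 distal regions (15.4%) were longer in knockout and 25 (24.0%) in wild type, against 183 (7.31%) and 824 (32.9%) of 2505 where it was marked in both. Where it was marked in wild type only, 3 of 27 (11.1%) were longer in knockout and 9 (33.3%) in wild type, so the share longer in knockout was also above that for starts marked in both. Where the start was itself at least 1.5 times longer in knockout, 48 of 287 distal regions (16.7%) were longer in knockout and 78 (27.2%) were longer in wild type. Where the start was longer in wild type, 6 of 121 (4.96%) were longer in knockout and 39 (32.2%) in wild type. Where the start was within 1.5-fold, the counts were 154 of 2296 (6.71%) and 767 (33.4%). Nearness is used here as a description, and several regions can share 1 gene.

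Among the gene lists, distal regions near CD8 effector genes were few and mostly longer in the knockout list. There were 8 of them near 4 of the 23 genes, and 5 (62.5%) were at least 1.5 times longer in knockout and 0 in wild type, where 6.60% and 32.8% of all distal regions and 10.4% and 20.2% of all shared regions were. Their median log2 ratio was 0.89. Near Ifng, the gene of interferon gamma, chr10:118468999-118471252 covered 1089 bp in wild type and 2254 bp in knockout, and chr10:118599034-118600648 covered 647 and 1615 bp. Downstream of Fasl, which encodes a death ligand of cytotoxic cells, chr1:161706601-161708011 covered 343 and 1411 bp and chr1:161670227-161671808 covered 574 and 1582 bp. The other 2 regions near Fasl were shorter in knockout, at 1175 and 893 bp and 660 and 512 bp. The remaining ones were near Gzmb (591 and 978 bp), a granule protease, and near Prf1 (2052 and 1993 bp), which encodes perforin. The starts of Ifng, Fasl, Gzmb and Prf1 were marked in the knockout list only. Over the 18 effector genes with a start in the table, the covered length at starts summed to 13479 bp in wild type, with 10 at 0 bp, and 39796 bp in knockout, with 1 at 0 bp, and the part of this in the distal values was not tested.

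Distal regions near genes of naive, memory and homing T cells also had a positive median, 0.18, with 13 of 19 longer in knockout. By the 1.5-fold rule 5 (26.3%) were longer in knockout and 2 (10.5%) in wild type, beside 6.60% and 32.8% of all distal regions. Near Dapl1, chr2:59469000-59471627 covered 788 bp in wild type and 2628 bp in knockout, while chr2:59437806-59439756 covered 1919 and 1635 bp. Near Ccr2, a chemokine receptor, chr9:124067746-124069604 covered 703 and 1859 bp, beside 1762 and 1655 bp at its neighbour. Of 8 regions near S1pr1, the receptor for lymphocyte egress, 6 were longer in knockout. The region chr3:115793065-115794322 covered 467 and 1258 bp, and chr3:115553613-115555100, 155332 bp away, went the other way with 1488 and 771 bp.

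Regions near T cell identity genes and T cell transcription factors were mixed, with negative medians. Of 17 regions near identity genes, 3 (17.6%) were longer in knockout by 1.5-fold and 5 (29.4%) in wild type, with a median of -0.22, and the second share is close to the 32.8% of all distal regions. Near Ets1, a lymphoid transcription factor, chr9:32939248-32942150 covered 1846 bp in wild type and 2903 bp in knockout, and the other 2 regions there were shorter in knockout, at 868 and 755 bp and 609 and 335 bp. Near Cd28, a co-stimulatory receptor, chr1:60825303-60826385 covered 1083 and 302 bp. Of 57 regions near transcription factors, 11 (19.3%) were longer in knockout and 15 (26.3%) in wild type, with a median of -0.26. The shares over all distal regions were 6.60% and 32.8%. At Runx3, which directs the CD8 lineage, all 4 upstream regions were longer in knockout, at 477 and 693 bp, 1169 and 1934 bp, 1355 and 3173 bp, and 680 and 1861 bp. At Lef1, a factor of naive T cells, 3 of 5 were longer, among them chr3:130945520-130948010 with 608 and 2491 bp. Near Foxp1, a factor of T cell quiescence, all 4 were shorter, among them chr6:98900416-98902076 with 1661 and 467 bp. Near inhibitory receptor genes there were 3 regions, of which chr16:43698017-43702239, 32891 bp upstream of Tigit, covered 4223 and 4094 bp.

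Lists of other cell types had negative medians as well. Near myeloid genes 3 of 23 regions (13.0%) were longer in knockout and 7 (30.4%) in wild type, with a median of -0.15, and the second share is close to that of all distal regions. Near Irf8, a myeloid transcription factor, chr8:120715030-120717078 covered 932 bp in wild type and 2049 bp in knockout, while the other 3 regions there were shorter in knockout, and near Bhlhe40 chr6:108687708-108689343 covered 1636 and 577 bp. Near epithelial and mammary tumour genes the counts were 2 (6.67%) and 6 (20%) of 30, with a median of -0.16. The first share is close to the 6.60% of all distal regions. The second is below the 32.8% of all distal regions and close to the 20.2% of all shared ones. All 4 regions near Sox9, an epithelial progenitor factor, were shorter in knockout, for example chr11:112978092-112980237 with 2146 and 1141 bp. Near fibroblast and endothelial genes the counts were 2 (11.1%) and 8 (44.4%) of 18, with a median of -0.48. Near developmental regulators they were 1 (5.00%) and 7 (35.0%) of 20, with a median of -0.46. Over all distal regions the shares were 6.60% and 32.8%, close to those near developmental regulators. Near Tbx3 chr5:119466899-119468505 covered 1607 and 671 bp, and near Kdr, the endothelial VEGF receptor, chr5:75827054-75828430 covered 1377 and 575 bp. Against the median of -0.35 over all distal regions, the fibroblast and developmental lists lay lower and the myeloid and epithelial lists higher. Of the 30 regions in the epithelial list, 16 were nearest to Myc, with a median of -0.03, so its median rests largely on 1 locus. Further lists held few regions, with 0 of 3 longer in knockout and 1 in wild type for B cell genes, 0 and 1 of 4 for natural killer genes, and 0 and 0 of 3 for leukocyte-wide genes.

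Distal regions occurred mostly alone or in small groups. Joined over gaps of up to 50 kb, they made 2709 groups, of which 1917 were single regions, 766 held 2 to 5 and 26 held 6 or more. In the groups of 6 or more there were 236 regions. The largest after the one described next lay near Egln3, a HIF prolyl hydroxylase, with 11 regions covering 11705 bp in wild type and 10674 bp in knockout. The 10 regions between Fam43a and Xxylt1 were all shorter in knockout, with 13583 bp in wild type and 7817 bp in knockout. The 9 regions near S1pr1 and Dph5 covered 8199 and 11815 bp, with 7 longer in knockout. The groups that follow were chosen after their values were seen. Between Glrp1 and Arl4c, 6 regions covered 8420 and 17856 bp, with 4 called longer in knockout and 1 in wild type. Near Mturn and Znrf2, 8 regions covered 5759 and 10356 bp, with 6 called longer in knockout and 0 in wild type. Near Plekha5, 7 regions covered 7890 and 4728 bp, with 0 called longer in knockout and 6 in wild type. Over all distal regions 6.60% were called longer in knockout and 32.8% in wild type, beside 10.4% and 20.2% of all shared regions.

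**Figure D4:**
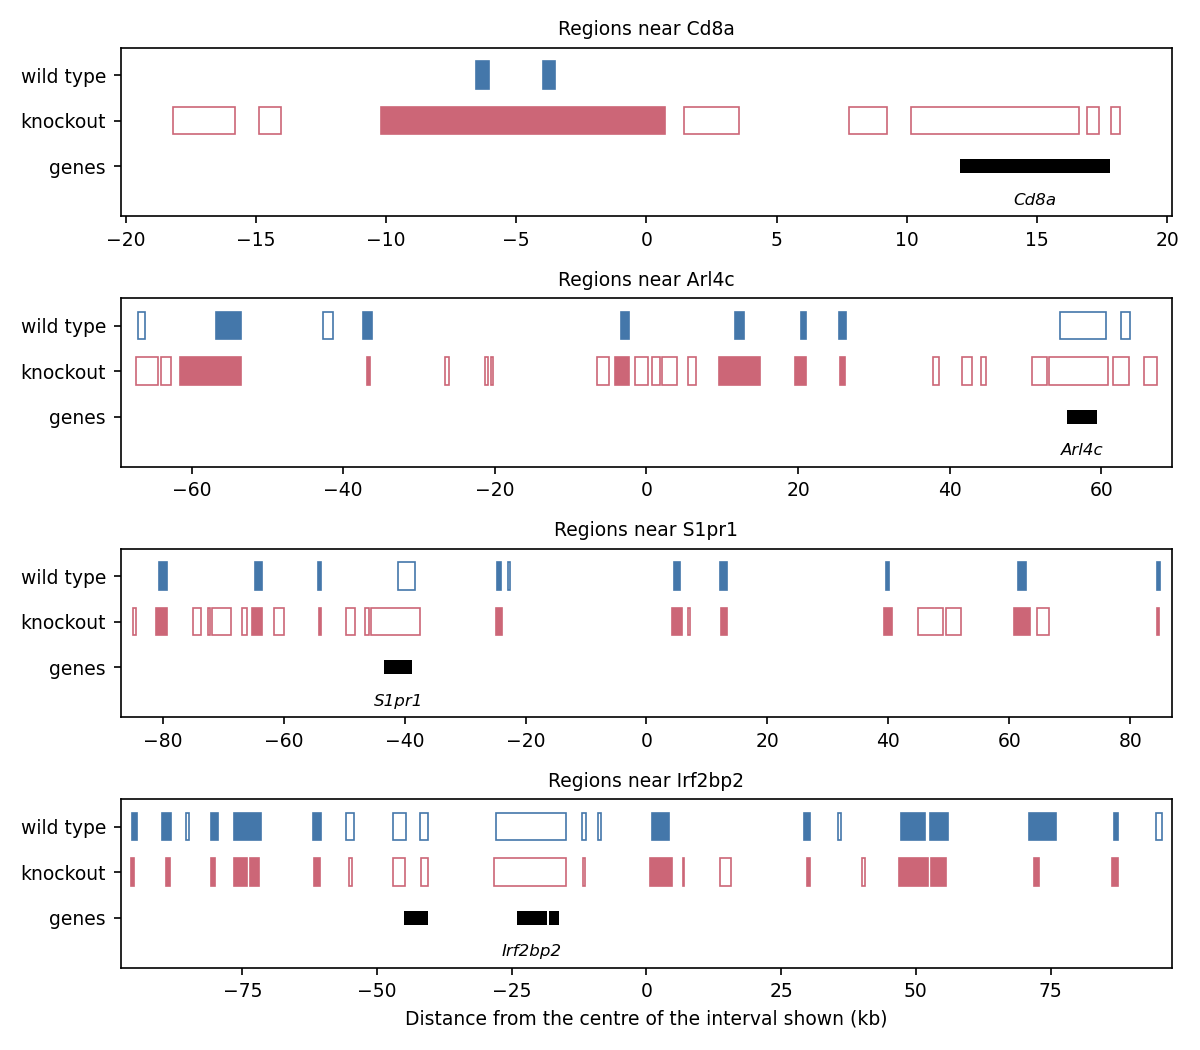
Called regions in the wild-type list and the knockout list near Cd8a, Arl4c, S1pr1 and Irf2bp2, by distance (kb) from the centre of each interval; filled boxes belong to shared regions at least 10 kb from genes, open boxes are other called regions, and black bars are genes. The filled knockout box near Cd8a is 1 stretch of 10905 bp over 2 wild-type boxes that sum to 911 bp.

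The largest group was a regular series between Hrh1, which encodes the histamine H1 receptor, and Atg7, which encodes the E1-like enzyme of autophagy. It held 57 distal regions over 137.879 kb at chr6:114495128-114633006. The median distance from summit to summit was 2450.5 bp in the wild-type list (SD 238 bp, range 1936 to 3012 bp over 56 gaps) and 2434.5 bp for knockout summits (SD 283 bp, range 1563 to 3246 bp). In wild type 38 of 56 gaps, and in knockout 36, lay within 10% of the median. Among the other 25 groups of 6 or more regions, the most regular in wild type had 3 of 6 gaps within that limit. The series began 11829 bp from Hrh1 and ended 10120 bp from Atg7, and 60 shared regions followed this spacing when 3 closer to a gene were counted.

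Regions of this series were strong within both lists. Folds ran from 7.64 to 60.3 in the wild-type list, with a median of 23.2, and from 5.53 to 36.3 in the knockout list, with a median of 14.5. The highest wild-type fold of any distal region, 60.3, belonged to chr6:114611761-114613150, which covered 1390 bp in wild type and 993 bp in knockout. Summits of the lists lay a median of 22 bp apart. In the knockout list 53 of the 57 regions were shorter, 3 were longer and 1 was equal, with 10 (17.5%) called longer in wild type and 0 in knockout, so that the first share was below the 32.8% of all distal regions and close to the 20.2% of all shared ones. Their total length was 75044 bp in wild type and 58118 bp in knockout, and their median log2 ratio was -0.35, as over all distal regions. The local background there was a median of 1.27 times the genome-wide value in wild type and 1.23 times in knockout.

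**Figure D5:**
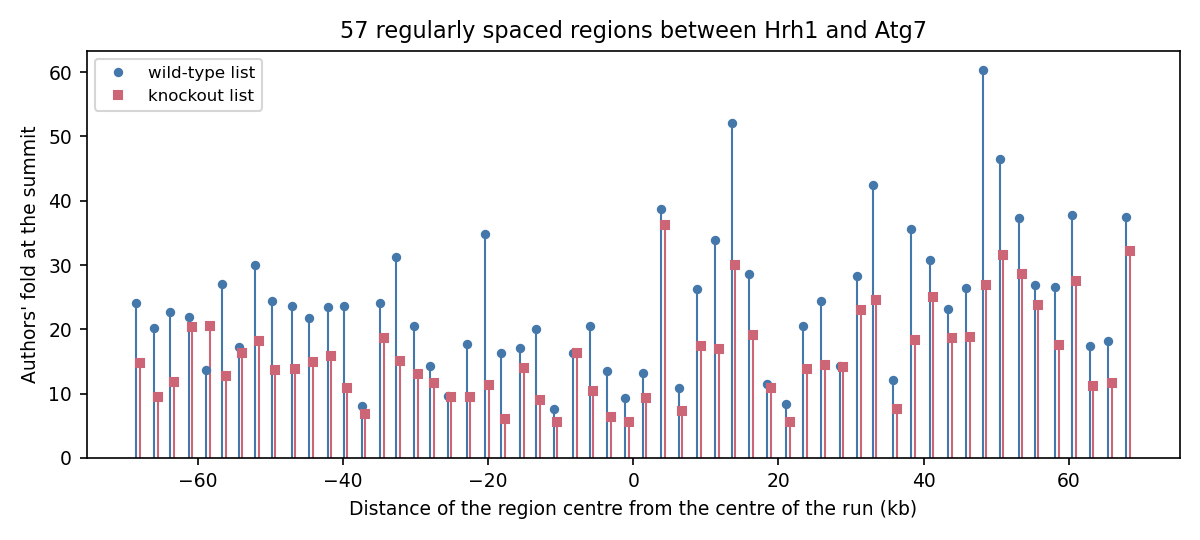
Authors' fold at the summit in the wild-type list (circles) and the knockout list (squares) for the 57 regions between Hrh1 and Atg7, by distance (kb) of the region's centre from the centre of the series. Regions follow each other at about 2.45 kb, and the highest wild-type fold (60.3) lies in the right part; folds are to be read within each list.

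A few distal regions lay in stretches of high local background. The local background, recovered from the deposited fold and p-value, equalled the genome-wide value of 2.85 reads at 71.8% of the distal regions in the wild-type list and that of 2.62 reads at 75% in the knockout list. It was at least 2 times higher in either list at 75 regions and in both at 34. At 4 regions the recovered value was over 100 times higher in both lists. These counts include regions with a −log10 q above 250, where the recovery was not checked. One of the 4 below that limit, chr12:74803909-74804473, had 120 times the genome-wide background in wild type and 108 times in knockout. Its folds were only 1.91 and 1.54. Without the 75 regions the median log2 ratio was -0.36.

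The intervals on both sides of Myc, the gene of a growth-promoting transcription factor, stood out on this measure. Of 16 distal regions nearest to Myc, 14 had raised background, at distances of 119968 to 578141 bp. Where −log10 q was below 250 in both lists, it was 4.13 to 14.5 times the genome-wide value in wild type. In knockout it was 1.94 to 6.65 times at these regions. The remaining regions lay beyond the range in which the recovery was checked, and their values are not printed. Within the checked range the recovered background was higher in wild type at each region. The lengths of the 14 regions differed little, with a median log2 ratio of -0.03. The region chr15:62327102-62330007, beyond the lncRNA gene Pvt1, covered 2906 bp in wild type and 2773 bp in knockout.

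Distal regions were spread over all chromosomes examined, at 4.36 per Mb of sequence at least 10 kb from genes. Chromosome 6 had 6.58 per Mb, or 5.42 without the series between Hrh1 and Atg7, and chromosome X had 1.16. The median log2 length ratio was negative on each chromosome, between -0.27 on chromosome 12 and -0.45 on chromosome 8.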

How the data were processed

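Regions had been called with MACS2 on GRCm38 (mm10), per the submitters' processing notes. For the aligner, settings, read filters and use of input, nothing is given in the sources used here. Each deposited list holds region and summit positions, the fold as a ratio over local background, and −log10 p and −log10 q values, all the authors' own. Covered lengths depend on depth and threshold, and the lists state no depth. Taking the fold as reads plus 1 over background plus 1, and p as Poisson, gave back whole summit reads to within 0.001 in −log10 p for 47991 of 47993 regions in wild type and 45817 of 45818 in knockout, among those below 250. The recovery was not checked above that limit. Median summit reads of the distal regions were 37 and 25.

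Genes came from a RefSeq GRCm38.p6 table (49550 genes, 21627 protein-coding, of which 17273 had a start there). Merging, distances and lengths were computed in Python 3.11.15 with NumPy 2.4.6, pandas 2.3.3 and SciPy 1.17.1, figures with Matplotlib 3.10.9, and the steps were tested on simulated data. Shares carry Clopper-Pearson intervals. Named regions are the 10 longest, the 10 of highest fold per list, the 10 largest gains and losses of covered length, the 5 farthest, 5 on either side of 10 kb, the 5 largest groups and up to 4 per gene list, of which some are printed; regions outside this rule that appear beside a named neighbour were chosen after their values were seen. The regions and the 12 gene lists were chosen with earlier results of these data known. No sequence is given because no genome was used here. The H3K27me3 and input libraries were not analysed here.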

Additional observations from a re-analysis of the deposited data

How the results depend on the processing

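The median log2 length ratio stayed negative and the fold of distal regions stayed below that of other shared regions under each alternative run. Distal regions numbered 2075 at 20 kb or more, 594 at 50 kb, 8660 when protein-coding genes alone counted, 2455 with a −log10 q of at least 10 and 1069 from the 20000 best regions of each list. In the last 4 of these the median ratio was -0.39, -0.33, -0.29 and -0.23. The share longer in knockout was 5.72, 7.52, 4.03 and 2.34%, and 5.67% with a −log10 q of at least 5. In the same order, all shared regions gave 10.4, 10.4, 6.55 and 4.30%, and 8.69%. The share longer in wild type was 31.4% with protein-coding genes alone and 31.2 and 24.1% with a −log10 q of at least 5 and 10. In the 20000 best regions it was 14.2%. All shared regions gave 20.2, 18.7, 13.2 and 6.26% in these settings. With a 2-fold rule the shares were 3.48% in knockout and 14.2% in wild type, beside 5.87% and 9.19% of all shared regions.

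The median fold of distal regions divided by that of other shared regions was 0.706 for wild type and 0.568 for knockout. It was 0.679 and 0.532 at 5 kb, 0.729 and 0.599 at 50 kb, 0.655 and 0.510 with protein-coding genes alone, 0.670 and 0.529 with a −log10 q of at least 5, 0.639 and 0.479 with at least 10, and 0.679 and 0.5435 with regions merged over 1 kb. In the 20000 best regions it was 0.491 in the knockout list. Leaving out the series of 57 regions, or the 75 of raised background, settings added after seeing the data, gave median log2 length ratios of -0.35 and -0.36. No paired analysis was possible because each genotype has 1 H3K4me3 library, and no library could be left out for the same reason.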
